A study of Mus musculus with 12 samples.

Results

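The genes described here are 43 genes for complement and coagulation proteins, the plasma proteins with which the liver supplies the blood for defence and clotting. They were taken by name from a table of 19252 genes, all 43 were found, and all 43 are among the 11376 genes that were tested. The rule is a list of names, drawn up with earlier results of these data known. The 12 libraries are liver RNA of C57BL/6 mice, 4 per group, and the labels give every mouse an age of 8 weeks without saying when it was taken, and 14 weeks of feeding. NAC_HFD mice ate a high fat diet and had 2 g of N-acetylcysteine per litre in their drinking water, HFD mice ate the high fat diet alone, and NFD mice ate a normal fat diet. N-acetylcysteine is a precursor of cysteine and of the antioxidant glutathione. The labels give neither the composition of the diets nor whether animals were pooled, and no group received N-acetylcysteine on the normal fat diet.

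Complement is a cascade of serum proteases and their substrates. Antibody, microbial sugars or spontaneous turnover start it, the starting proteases assemble convertases that cleave C3, and the terminal proteins then build a pore in the target membrane. Coagulation is a second protease cascade, which ends when thrombin cuts fibrinogen into fibrin, and plasmin dissolves that fibrin again. Hepatocytes make most of the proteins of both cascades, and many of these genes belong to the acute phase response, the change in liver secretion that interleukin 6 drives during inflammation.

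Levels are the authors' TPM, a length-corrected share of all transcripts in a library, so levels of different genes can be set side by side. TPM keeps no read depth, so the depth behind each value is unknown. A fold change is the difference between the means of log2(TPM + 1) in both groups, with its standard error from limma, and a gene is called where its p, adjusted over all tested genes, is under 0.05. The p-values measure only the spread between these 12 libraries. In whole tissue, fewer cells of a type and less RNA per cell cannot be told apart.

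The gene table summed to between 656154 and 713716 TPM per library, and between 10864 and 11316 genes reached 1 TPM. The hepatocyte marker Alb, which encodes albumin, was between 22101 and 38257 TPM in all libraries, and Hnf4a, a hepatocyte transcription factor, between 196 and 298 TPM. As a percentage of the gene table's sum, the 43 members together took 2.69 to 3.01 in NAC_HFD livers, 2.36 to 2.84 in HFD livers and 2.45 to 2.62 in NFD livers. C3, the central protein of complement, was the most abundant member, with 2735 ± 127 TPM in NAC_HFD livers, 2445 ± 159.6 in HFD livers and 2488 ± 308 in NFD livers (SD, n = 4 each). Pros1, which encodes protein S, was the least abundant, with 16.3 ± 1.02 TPM in NAC_HFD livers, 17.7 ± 1.72 in HFD livers and 21.2 ± 5.68 in NFD livers (SD, n = 4 each). Within groups the median coefficient of variation was 10.3% over the members. It was 11.4% over the 5310 tested genes with a mean of at least 10 TPM, which were not matched to the members in level. C6, C9 and C8b, all of the membrane pore, varied most, with mean coefficients of 32.5%, 28.5% and 24.4%.

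The comparison of HFD with NFD livers asks what the diet did to these genes. One member passed the threshold: C4b, which encodes the complement component C4, rose in HFD livers by 0.58 on the log2 scale. That is 1 of 43 members, beside 2.78% of all tested genes called in either direction (2.19% higher and 0.589% lower, or 249 and 67 genes). After quantile normalization 259 genes were called higher and 160 lower. After the gene table was rescaled to a fixed sum of its non-mitochondrial genes, the counts were 192 and 93. At an unadjusted p under 0.05 there were 9 members higher and 4 lower, beside 19.1% of all tested genes in either direction (11.8% higher and 7.3% lower). The 4 HFD values lay wholly above the 4 NFD values for 7 members (C1s1, C4b, C4bp, C8g, F11, Masp2 and Mbl1) and wholly below them for 4 (C2, C6, C8b and Vtn). These 11 are 25.6% of the members, beside 12.4% of all tested genes, 7.78% wholly above and 4.57% wholly below. The median log2 fold change was 0.06 over the members and 0.01 over all tested genes, and 28 of 43 members had a positive one, beside 52.7% of all genes. Without NFD replicate 4, which is low for many members, 23 of 43 were positive with a median of 0.0058, and after quantile normalization 22 with a median of 0.0078. The members' median was 0.028 after the gene table was rescaled, 0.039 with median-of-ratios scaling, 0.09 without HFD replicate 3 and 0.10 without NFD replicate 2.

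The comparison of NAC_HFD with HFD livers asks what N-acetylcysteine did in mice on the high fat diet. No member was called, and neither was any of the 11376 tested genes (0%), with limma the only tool run. At an unadjusted p under 0.05 there were 6 members higher (C8b, Hrg, F11, F7, Fgb and Plg) and 2 lower (C4bp and C4b). Over all tested genes the same threshold took 2.51% higher and 13.9% lower, 16.4% or 1870 genes in all. The NAC_HFD values lay wholly above the HFD values for C1ra, F7, Hrg, Plg and Vtn and wholly below them for C4bp and C8g. These 7 are 16.3% of the members, beside 10.2% of all tested genes, 1.56% wholly above and 8.66% wholly below. The members' median log2 fold change was 0.11 and that of all tested genes -0.08, and 26 of 43 members were positive, beside 31.5% of all genes. With median-of-ratios scaling 34 members were positive, with a median of 0.21 beside -0.0014 over all genes, and after quantile normalization 31, with a median of 0.09 beside 0.0097. The members' median was 0.058, 0.062 and 0.071 without NAC_HFD replicate 3, NAC_HFD replicate 4 or HFD replicate 3.

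The comparison of NAC_HFD with NFD livers sets the treated mice against the normal diet. F11, which encodes coagulation factor XI, rose in NAC_HFD livers by 0.64 on the log2 scale and was the 1 member called, beside 5.28% of all tested genes, which divide into 200 genes higher (1.76%) and 401 lower (3.52%). Scaling by the median of ratios turned this balance to 363 higher and 269 lower, and quantile normalization to 314 and 294. At an unadjusted p under 0.05 there were 11 members higher and 1 lower (Pros1), beside 22.6% of all genes (6.77% higher and 15.9% lower). The NAC_HFD values lay wholly above the NFD values for F11, Fga and Hrg and wholly below them for no member, which makes 6.98% of the members, beside 12% of all tested genes, 3.52% wholly above and 8.52% wholly below. The median log2 fold change was 0.10 over the members and -0.07 over all tested genes, with 34 of 43 members positive, beside 37.5% of all genes. Under the scaling by the median of ratios, 5 members were called higher (F11, Fga, Hrg, Plg and F5) and 40 of 43 were positive, with a median of 0.18 beside -0.0045 over all genes. Without NAC_HFD replicate 4 the members' median was 0.061. The 3 comparisons share libraries pairwise, so their fold changes are not independent of each other. Under 3 other scalings of the libraries the sign of 8 of 43 members turned in each comparison, in all cases members whose log2 fold change was at most 0.08 in size. After quantile normalization C3 was 0.09 and Fgb -0.14 in HFD against NFD livers.

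**Figure D1:**
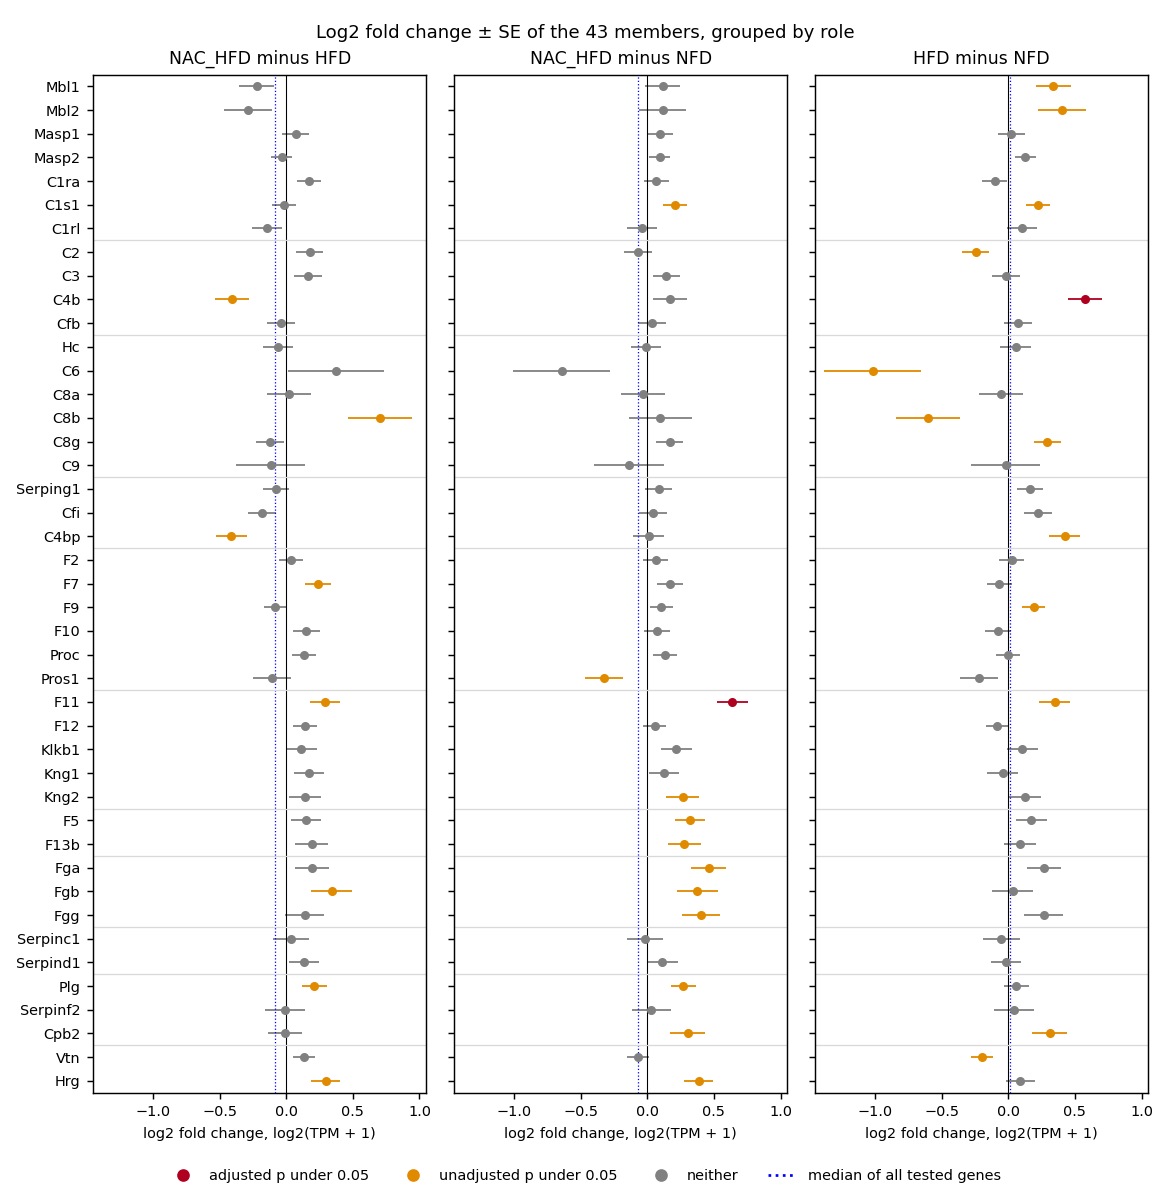
Log2 fold change ± SE of each of the 43 members in the 3 comparisons on the log2(TPM + 1) scale, with roles separated by grey lines and the median of all tested genes dotted. The 2 red points are the called members, C4b at 0.58 in HFD against NFD livers and F11 at 0.64 in NAC_HFD against NFD livers.

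The starters of the lectin and classical pathways are 7 members. In the lectin pathway the mannose-binding lectins Mbl1 and Mbl2 recognise sugars on microbes, and the proteases Masp1 and Masp2 ride on them; C1ra and C1s1 are the proteases of the classical C1 complex, and C1rl is a C1r-like protease. None of the 7 was called in any comparison. In HFD against NFD livers 6 of 7 estimates were positive with a median of 0.13, in NAC_HFD against HFD livers 2 of 7 with a median of -0.04, and in NAC_HFD against NFD livers 6 of 7 with a median of 0.09. Mbl1 had 122, 104, 94.6 and 111 TPM in NAC_HFD livers, 137, 121, 126 and 118 in HFD livers and 108, 109, 73.8 and 111 in NFD livers. All HFD values were above all NFD values, and NFD replicate 3 was far below the rest of its group; the log2 fold change was 0.34 ± 0.13 (adjusted p = 0.178) in HFD against NFD livers and -0.22 ± 0.13 (adjusted p = 0.408) in NAC_HFD against HFD livers. Mbl2 had 152, 174, 239 and 249.5 TPM in NAC_HFD livers, 244, 297, 192 and 251 in HFD livers and 206, 218, 153 and 167 in NFD livers, with overlapping groups. Its log2 fold change was 0.40 ± 0.18 (adjusted p = 0.242) in HFD against NFD livers. C1s1 had 246, 264, 283 and 289 TPM in NAC_HFD livers, 273, 287, 261 and 272 in HFD livers and 244, 252, 225 and 214 in NFD livers. Its log2 fold change was 0.22 ± 0.09 (adjusted p = 0.195) in HFD against NFD livers, without overlap, and 0.21 ± 0.09 (adjusted p = 0.185) in NAC_HFD against NFD livers, with overlap. C1ra had 119.7, 119, 116 and 123 TPM in NAC_HFD livers, 105, 100.5, 111 and 107 in HFD livers and 127, 125, 106 and 100.2 in NFD livers. Here the NAC_HFD values lay above the HFD values, with a log2 fold change of 0.17 ± 0.09 (adjusted p = 0.369). Masp1, Masp2 and C1rl averaged between 54.2 and 166 TPM in the 3 groups, and their log2 fold changes lay between -0.14 and 0.13.

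The 4 members that supply the C3 convertases, the enzymes that cleave C3, include the gene called in HFD against NFD livers. C4b (chr17:34728139-34743902 in build GRCm38.p6, protein coding) encodes C4, whose larger fragment binds the target and forms the classical and lectin convertase with a fragment of C2. C4b had 466, 416, 425 and 476 TPM in NAC_HFD livers, 653, 565, 467 and 709 in HFD livers and 425, 424, 402 and 342 in NFD livers. All 4 HFD values were above all 4 NFD values, while HFD replicate 3 lay within the NAC_HFD range. C4b averaged 446 ± 29.4 TPM in NAC_HFD livers, 598 ± 106 in HFD livers and 398 ± 39.1 in NFD livers (SD, n = 4 each). The log2 fold change was 0.58 ± 0.13 (adjusted p = 0.0295) in HFD against NFD livers, -0.41 ± 0.13 (adjusted p = 0.152) in NAC_HFD against HFD livers and 0.17 ± 0.13 (adjusted p = 0.462) in NAC_HFD against NFD livers. The call in HFD against NFD livers was lost when HFD replicate 1, 2 or 4 or NFD replicate 1, 3 or 4 was left out, with adjusted p-values of 0.0509 to 0.109 and log2 fold changes of 0.49 to 0.61. It was also lost without a filter on low values (adjusted p = 0.0601) and when only HFD and NFD entered the fit (adjusted p = 0.0527). C4 is known as an acute phase protein, and the summed level of 23 acute phase genes was 5920.3 to 8362 TPM in NAC_HFD livers, 6985 to 14042 in HFD livers and 5613 to 8519 in NFD livers. HFD replicate 4, which had the highest C4b, also had the highest acute phase sum, and whether the acute phase has a part in the C4b result was not tested.

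**Figure D2:**
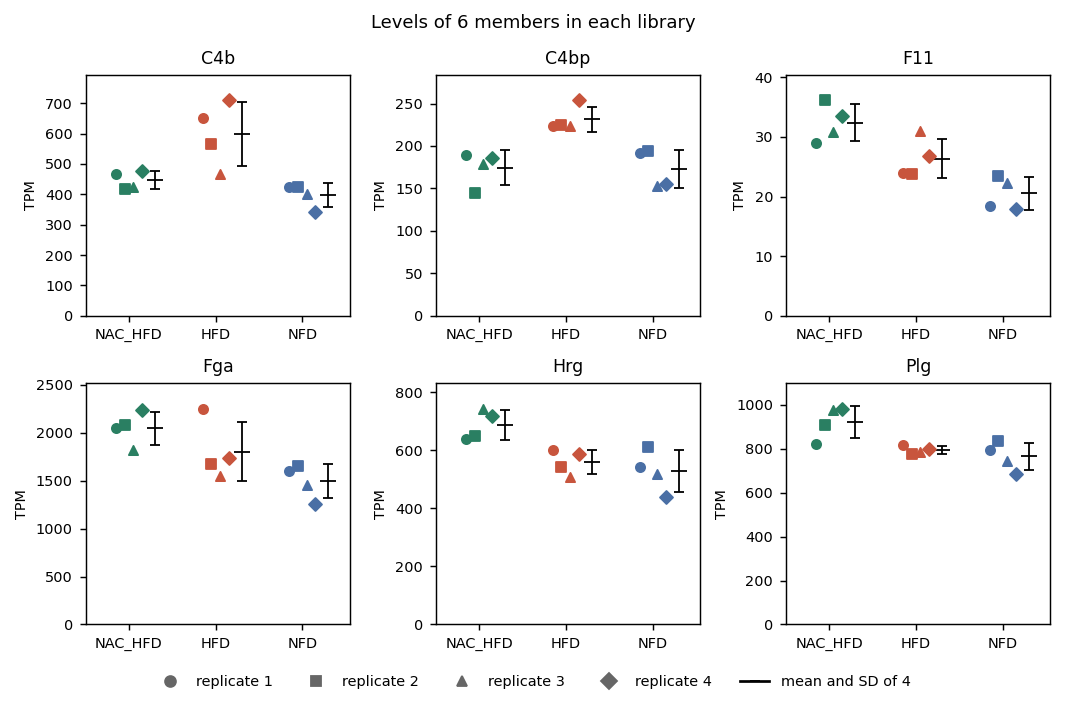
TPM of C4b, C4bp, F11, Fga, Hrg and Plg in each of the 12 libraries, by group, with the mean and SD of 4 in black. For C4b the 4 HFD livers sit between 467 and 709 TPM and the 4 NFD livers between 342 and 425 TPM, and for F11 the NAC_HFD livers sit between 29.0 and 36.1 TPM and the NFD livers between 18.0 and 23.4 TPM.

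The C4b value in the gene table is the sum of 2 transcripts, one from the mRNA table and one from the table of long noncoding transcripts (lncRNA table). The mRNA ENSMUST00000069507 had 364, 322, 335 and 378 TPM in NAC_HFD livers, 458, 388, 331 and 514 in HFD livers and 308, 307, 292 and 247 in NFD livers. It made up 73.6% of the C4b level, and its log2 fold change in HFD against NFD livers was 0.54 ± 0.13 (adjusted p = 0.0947) in the fit over mRNA transcripts. The other transcript, ENSMUST00000173669, had 102, 94.7, 89.8 and 97.5 TPM in NAC_HFD livers, 194, 177, 136 and 195 in HFD livers and 117, 117, 109.7 and 94.7 in NFD livers. Both transcripts had their highest mean in HFD livers, and the second had all HFD values above all others. C4a is a close paralog of C4b that encodes Slp, a protein named for its restriction to male mice. Its 4 transcripts in the lncRNA table summed to 69.1, 92.2, 17.6 and 16.6 TPM in NAC_HFD livers, 72.2, 59.4, 79.4 and 82.2 in HFD livers and 44.8, 44.6, 24.6 and 46.1 in NFD livers. NAC_HFD replicates 3 and 4 lay below all other libraries, and the HFD values were above the NFD values. The labels do not say how reads were divided between C4a and C4b, so the C4b level is uncertain in this respect.

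**Figure D3:**
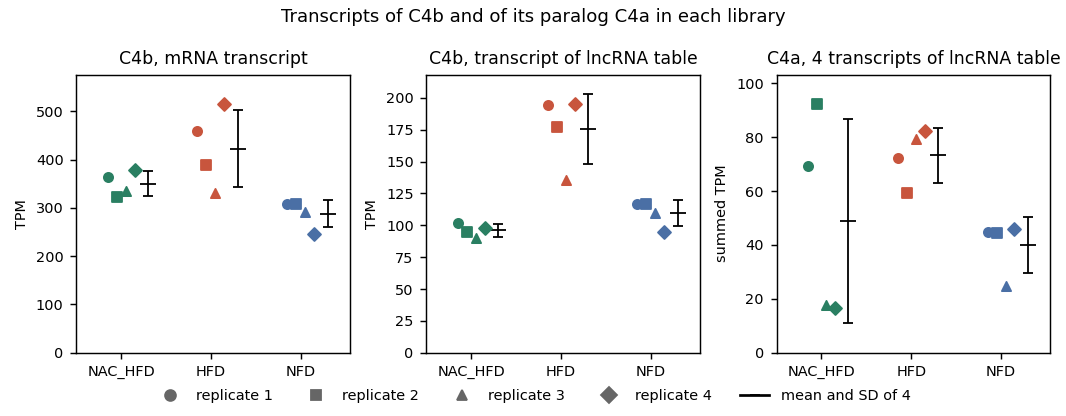
TPM of the C4b mRNA transcript, of the C4b transcript in the lncRNA table and of the 4 summed C4a transcripts in the lncRNA table, in each library by group, with the mean and SD of 4 in black. The C4b transcript of the lncRNA table lies between 136 and 195 TPM in HFD livers, above the other groups, while C4a falls into a high and a low pair among the NAC_HFD livers.

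None of the other convertase genes was called. C3 had 2574, 2785, 2874 and 2705 TPM in NAC_HFD livers, 2670.5, 2419.5, 2295 and 2396 in HFD livers and 2571, 2358, 2151 and 2872 in NFD livers. The groups overlap, and the log2 fold changes were -0.02 (adjusted p = 0.947) in HFD against NFD livers and 0.16 (adjusted p = 0.453) in NAC_HFD against HFD livers. NFD replicate 4 was the highest of its group, and 863 TPM of its C3 came from the transcript ENSMUST00000177425, which was between 52.8 and 151 TPM in the other NFD livers. That transcript averaged 397 ± 277 TPM in NAC_HFD livers and 178 ± 104 in HFD livers (SD, n = 4 each). The main transcript ENSMUST00000024988 averaged 2338 ± 229 and 2267 ± 240 TPM there. Most of the C3 difference between NAC_HFD and HFD livers thus lay in the minor transcript. Cfb, the protease of the alternative convertase, had 603, 601, 524 and 558 TPM in NAC_HFD livers, 601, 590.5, 562 and 593 in HFD livers and 628, 624, 509.9 and 484 in NFD livers, and its log2 fold changes lay between -0.04 and 0.07. C2, the protease that joins C4, had 46.3, 49.4, 39.6 and 39.2 TPM in NAC_HFD livers, 39.1, 32.7, 40.1 and 42.0 in HFD livers and 47.6, 46.3, 46.5 and 42.2 in NFD livers. All HFD values were below all NFD values, the opposite side from C4b, with a log2 fold change of -0.25 ± 0.10 (adjusted p = 0.214).

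The terminal pathway has 6 members: Hc, which encodes C5, then C6, the 3 chains of C8 (C8a, C8b and C8g) and C9, which polymerises into the pore. None was called. C6 had 155, 178, 62.1 and 72.7 TPM in NAC_HFD livers, 51.9, 60.1, 128 and 109 in HFD livers and 176, 164, 168 and 155 in NFD livers. The NFD livers lay close together, while NAC_HFD replicates 3 and 4 and HFD replicates 1 and 2 were at most 72.7 TPM and the other libraries at least 109 TPM. C6 averaged 117 ± 58.0 TPM in NAC_HFD livers, 87.3 ± 37.1 in HFD livers and 166 ± 8.63 in NFD livers (SD, n = 4 each), and its log2 fold change of -1.02 ± 0.36 (adjusted p = 0.161) in HFD against NFD livers was the largest in size of any member in that comparison. In NAC_HFD against NFD livers it was -0.64 ± 0.36 (adjusted p = 0.316), with overlapping groups. C8b had 211, 298, 121 and 161 TPM in NAC_HFD livers, 106, 85.7, 143 and 133 in HFD livers and 167, 188, 198 and 150.5 in NFD livers. All HFD values were below all NFD values, with a log2 fold change of -0.61 ± 0.24 (adjusted p = 0.194), and in NAC_HFD against HFD livers it was 0.70 ± 0.24 (adjusted p = 0.186), where NAC_HFD replicate 3 overlaps HFD. C9 had 188, 247, 125 and 114 TPM in NAC_HFD livers, 142, 132, 192 and 257 in HFD livers and 194, 215, 151 and 156 in NFD livers. Its groups overlap, and within NAC_HFD and HFD the same 4 libraries that were low for C6 were the lowest.

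The 3 chains of C8 did not keep a fixed proportion. The ratio of C8a to C8b was 1.11, 0.96, 1.25 and 1.13 in NAC_HFD livers, 1.70, 2.32, 1.43 and 1.81 in HFD livers and 1.29, 1.22, 1.10 and 1.26 in NFD livers. It was higher in every HFD liver than in any other liver. C8a had 235, 286, 152 and 183 TPM in NAC_HFD livers, 179.7, 199, 206 and 240.2 in HFD livers and 215, 230.3, 219 and 189 in NFD livers, with overlapping groups and log2 fold changes between -0.05 and 0.02. C8g, the lipocalin chain of C8, had 145, 126, 148 and 143 TPM in NAC_HFD livers, 148, 159, 152 and 152 in HFD livers and 132, 147, 109.7 and 113 in NFD livers. Here all HFD values were above all NFD and all NAC_HFD values, with log2 fold changes of 0.29 ± 0.10 (adjusted p = 0.143) in HFD against NFD livers and -0.12 ± 0.10 (adjusted p = 0.578) in NAC_HFD against HFD livers. Hc had 296, 320.1, 264 and 273 TPM in NAC_HFD livers, 299, 299, 266 and 343 in HFD livers and 281, 282, 345 and 256 in NFD livers, and its log2 fold changes lay between -0.06 and 0.05.

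In mice the serum levels of terminal complement proteins are known to be higher in males than in females. The labels do not give the sex of the animals. The summed level of 11 genes known for higher expression in male than in female mouse liver, a list drawn up after the values of C6 were seen, was 9289, 10708, 5848 and 5501 TPM in NAC_HFD livers, 4826, 7234, 11102 and 9754 in HFD livers and 10565, 10546, 11886 and 9076 in NFD livers. NAC_HFD replicates 3 and 4 and HFD replicates 1 and 2 had the 4 lowest sums, and they are also the 4 libraries lowest for C6. In HFD against NFD livers 2 of the 11 had a positive log2 fold change and none was called, in NAC_HFD against HFD livers 7 of 11 and none, and in NAC_HFD against NFD livers 3 of 11 and none. Among them Gstp1, a glutathione transferase, had 2022, 2956, 1651 and 987 TPM in NAC_HFD livers, 709.7, 1179, 1991 and 1866 in HFD livers and 2671, 2416, 3071 and 2323 in NFD livers. Mup20, a major urinary protein, had 5597, 6268, 2850.4 and 3103 TPM in NAC_HFD livers, 3085, 4920.1, 7470.2 and 6326 in HFD livers and 6184, 6483, 7308 and 5363 in NFD livers. Mup20 and Gstp1 together made up most of the sum in every library, so the order of the sums says little about the rest of the list. None of the 11 was at 0 in any library, and their part in the results for C6, C8b and C9 was not tested.

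**Figure D4:**
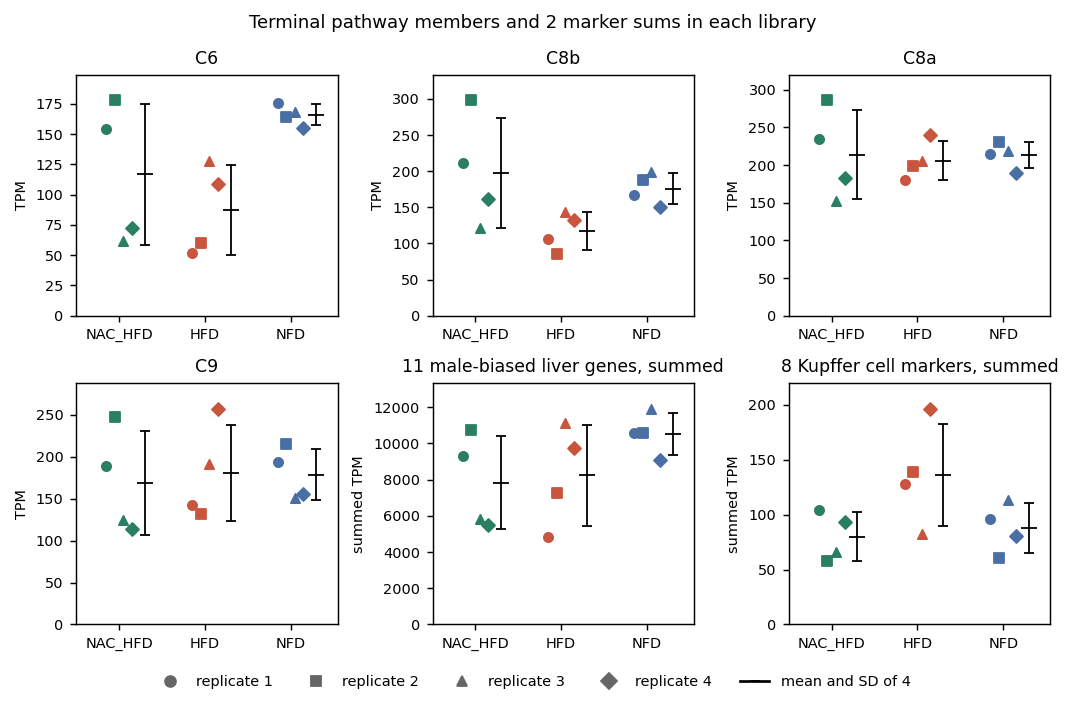
TPM of C6, C8b, C8a and C9 and summed TPM of 11 male-biased liver genes and of 8 Kupffer cell markers, in each library by group, with the mean and SD of 4 in black. NAC_HFD replicates 3 and 4 and HFD replicates 1 and 2 are low for C6 and for the male-biased sum, while the NFD livers lie between 155 and 176 TPM for C6.

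The complement inhibitors are Serping1, the C1 inhibitor, which also blocks kallikrein, Cfi, the protease factor I that cuts C3b and C4b, and C4bp, the C4-binding protein that helps factor I. None was called as a gene. C4bp (chr1:130635921-130661657) had 189, 144, 178 and 186 TPM in NAC_HFD livers, 224, 225, 223 and 254 in HFD livers and 191, 194, 153 and 155 in NFD livers. All 4 HFD values were above all 4 NFD values and all 4 NAC_HFD values. C4bp averaged 174 ± 20.5 TPM in NAC_HFD livers, 231 ± 14.8 in HFD livers and 173 ± 22.3 in NFD livers (SD, n = 4 each), with a log2 fold change of 0.42 ± 0.11 (adjusted p = 0.0646) in HFD against NFD livers and -0.41 ± 0.11 (adjusted p = 0.115) in NAC_HFD against HFD livers. Of the 43 members, C4bp had the smallest p in NAC_HFD against HFD livers. Without NAC_HFD replicate 2 its adjusted p in HFD against NFD livers was 0.0417. In 21 of the 22 alternative fits C4bp was not called there, and its adjusted p reached 0.179. Its main transcript ENSMUST00000027657, which made up 77.3% of C4bp, had 143, 121, 142 and 152 TPM in NAC_HFD livers, 184, 176, 166 and 206 in HFD livers and 133, 141, 115 and 110.3 in NFD livers. That transcript was called higher in HFD against NFD livers, at 0.55 ± 0.11 (adjusted p = 0.049), beside 0.621% of the 18183 mRNA transcripts tested. This call was lost when any library but NAC_HFD replicate 2 or NFD replicate 2 was left out, with adjusted p-values of 0.0583 to 0.16. It was also lost with a pseudocount of 0.1, no filter, only both groups in the fit, the replicate number as a block, or eBayes without trend or robust, with adjusted p-values of 0.0523 to 0.126. C4b and its inhibitor C4bp both had their highest mean in HFD livers. Serping1 had 413, 427, 369.9 and 445 TPM in NAC_HFD livers, 473, 389, 407 and 479 in HFD livers and 402, 382, 389 and 385 in NFD livers, and Cfi ranged over 266 to 320.3 TPM in NAC_HFD livers, 290.0 to 346 in HFD livers and 254 to 309 in NFD livers. In HFD against NFD livers their log2 fold changes were 0.16 and 0.22, and in NAC_HFD against HFD livers -0.08 and -0.18.

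The promoter of C4bp is shown because C4bp was the member with the smallest p in the comparison of NAC_HFD with HFD livers. The sequence runs from 250 bases before to 50 bases after the start used for its promoter window (RefSeq, GRCm38.p6, chr1:130661569-130661868, minus strand). That start lies inside C4bp as placed above, not at its outer end. Capitals mark the motif GTTAAT of HNF1, a hepatocyte transcription factor, 64 to 59 bases before that start. The marked bases lie just beyond the outer end of C4bp as placed above.
C4bp: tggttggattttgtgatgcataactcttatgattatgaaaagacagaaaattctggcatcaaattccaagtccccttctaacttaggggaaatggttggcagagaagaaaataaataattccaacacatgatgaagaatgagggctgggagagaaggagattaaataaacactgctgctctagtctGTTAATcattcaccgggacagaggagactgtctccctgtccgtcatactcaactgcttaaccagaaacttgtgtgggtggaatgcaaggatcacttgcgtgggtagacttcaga

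Of the vitamin K dependent factors, F2 is prothrombin, F7, F9 and F10 are the proteases of the tissue factor and tenase steps, and Proc and Pros1 are the anticoagulant proteins C and S. None of the 6 was called, and their median log2 fold changes were -0.03 in HFD against NFD livers, 0.09 in NAC_HFD against HFD livers and 0.09 in NAC_HFD against NFD livers. F2, the most abundant of them, had 761, 724, 819.7 and 875 TPM in NAC_HFD livers, 798, 785, 762 and 751 in HFD livers and 812, 797, 729.5 and 706 in NFD livers. The groups overlap, and its log2 fold changes lay between 0.03 and 0.06. F7, which starts clotting with tissue factor, had 33.9, 33.0, 41.8 and 37.6 TPM in NAC_HFD livers, 32.9, 31.0, 28.8 and 30.5 in HFD livers and 31.0, 35.5, 33.6 and 29.5 in NFD livers. All NAC_HFD values were above all HFD values, with a log2 fold change of 0.24 ± 0.10 (adjusted p = 0.244). F9 had 87.9, 89.6, 90.1 and 88.2 TPM in NAC_HFD livers, 95.5, 101, 87.2 and 93.8 in HFD livers and 85.6, 91.6, 79.3 and 75.1 in NFD livers. It was 0.19 ± 0.09 (adjusted p = 0.252) in HFD against NFD livers, with overlap. F10 had 181, 183, 196 and 216 TPM in NAC_HFD livers, 188, 181, 169.9 and 159 in HFD livers and 185, 209, 181 and 164 in NFD livers, and its log2 fold changes lay between -0.08 and 0.15. Proc had 307, 353, 340.4 and 334 TPM in NAC_HFD livers, 311, 301, 328 and 276 in HFD livers and 313, 322, 283 and 297 in NFD livers. Its log2 fold change was 0.13 in NAC_HFD against HFD livers and 0.13 in NAC_HFD against NFD livers, with overlap in each. Pros1 ranged over 14.8 to 17.1 TPM in NAC_HFD livers, 15.3 to 19.4 in HFD livers and 16.5 to 29.2 in NFD livers, with NFD replicate 3 the highest, and had a log2 fold change of -0.33 ± 0.14 (adjusted p = 0.19) in NAC_HFD against NFD livers.

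The contact system starts clotting on charged surfaces: F12 activates prekallikrein (Klkb1) and factor XI (F11), and Kng1 and Kng2 encode kininogens, the carriers of bradykinin. F11 (chr8:45240659-45262055, protein coding) had 29.0, 36.1, 30.9 and 33.5 TPM in NAC_HFD livers, 24.0, 23.8, 30.9 and 26.7 in HFD livers and 18.4, 23.4, 22.3 and 18.0 in NFD livers. Every NAC_HFD and every HFD value was above every NFD value, and the NAC_HFD and HFD groups overlap through HFD replicate 3. F11 averaged 32.4 ± 3.12 TPM in NAC_HFD livers, 26.4 ± 3.32 in HFD livers and 20.5 ± 2.75 in NFD livers (SD, n = 4 each). It rose in NAC_HFD against NFD livers with a log2 fold change of 0.64 ± 0.12 (adjusted p = 0.0104), and the adjusted p stayed between 0.00791 and 0.0354 in the 22 alternative fits. In HFD against NFD livers the log2 fold change was 0.35 ± 0.12 (adjusted p = 0.121), and in NAC_HFD against HFD livers 0.29 ± 0.12 (adjusted p = 0.239). F11 has 1 transcript in the tables, so its gene and transcript levels are the same. In the fit over mRNA transcripts its adjusted p was 0.0296, and 0.0602 to 0.0817 without NAC_HFD replicate 2, 3 or 4 or NFD replicate 1. That transcript call was also lost with the replicate block, no filter or only both groups in the fit, with adjusted p-values of 0.0583 to 0.0916.

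The F11 promoter is shown because F11 is the called member of that comparison (RefSeq, GRCm38.p6, chr8:45261982-45262281, minus strand). Capitals mark the 8 bases that match the C/EBP motif TTGCNNAA on the opposite strand. They lie 17 to 10 bases before the start on which this window is built. That start lies inside F11 as placed above, not at its outer end, and so do the marked bases. C/EBP proteins are liver and acute phase transcription factors.
F11: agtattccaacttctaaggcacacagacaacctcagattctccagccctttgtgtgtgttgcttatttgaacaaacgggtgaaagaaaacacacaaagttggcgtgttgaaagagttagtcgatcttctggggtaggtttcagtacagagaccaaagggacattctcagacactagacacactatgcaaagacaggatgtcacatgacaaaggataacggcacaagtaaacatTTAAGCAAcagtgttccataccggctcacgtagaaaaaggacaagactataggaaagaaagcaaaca

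The rest of the contact system had positive estimates in NAC_HFD livers against both diets, none of them called. F12 had 184, 192, 201 and 223 TPM in NAC_HFD livers, 181, 180.3, 178 and 185 in HFD livers and 201, 201, 190.4 and 177 in NFD livers. Klkb1 had 65.8, 74.3, 91.5 and 96.0 TPM in NAC_HFD livers, 69.8, 78.6, 78.3 and 72.6 in HFD livers and 74.8, 73.2, 63.2 and 67.3 in NFD livers. Kng1 had 901, 1100.1, 1086 and 1220.2 TPM in NAC_HFD livers, 1019, 992, 873 and 932 in HFD livers and 1065, 1083, 891 and 903 in NFD livers. The groups of all 3 overlap in each comparison, except that the overlap of F12 between NAC_HFD and HFD rests on NAC_HFD replicate 1 alone. In NAC_HFD against HFD livers their log2 fold changes were 0.14, 0.11 and 0.17, and in NAC_HFD against NFD livers 0.06, 0.22 and 0.13. Kng2 ranged over 134 to 184 TPM in NAC_HFD livers, 124 to 159 in HFD livers and 112 to 148 in NFD livers and was 0.26 ± 0.12 (adjusted p = 0.21) in NAC_HFD against NFD livers. Its minor transcript ENSMUST00000039338 had 6.60, 7.52, 10.6 and 9.39 TPM in NAC_HFD livers, 7.90, 6.44, 6.61 and 6.52 in HFD livers and 3.84, 4.81, 3.65 and 5.30 in NFD livers. This transcript was called higher in NAC_HFD against NFD livers, at 0.81 ± 0.15 (adjusted p = 0.0264), beside 1.41% of the mRNA transcripts tested. The call was lost without NAC_HFD replicate 3 or 4 or NFD replicate 1 or 3, with adjusted p-values of 0.0605 to 0.0744, and with the replicate block, no filter or only both groups in the fit, with adjusted p-values of 0.0708 to 0.106. F5, the cofactor of factor Xa, had 160.4, 163, 179 and 212 TPM in NAC_HFD livers, 153, 165, 154 and 169.7 in HFD livers and 161, 153, 138 and 120.0 in NFD livers, and was 0.32 ± 0.11 (adjusted p = 0.117) in NAC_HFD against NFD livers. F13b, the carrier chain of the transglutaminase that crosslinks fibrin, ranged over 76.7 to 106 TPM in NAC_HFD livers, 75.2 to 83.5 in HFD livers and 60.7 to 80.8 in NFD livers and was 0.28 ± 0.12 (adjusted p = 0.19) there.

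Fibrinogen has 3 chains, Fga, Fgb and Fgg, encoded by neighbouring genes on chromosome 3 (Fgg at chr3:83007724-83015056, Fga at chr3:83026153-83033627 and Fgb at chr3:83042246-83049863). Fga had 2052, 2082, 1820.2 and 2232 TPM in NAC_HFD livers, 2246, 1677, 1552 and 1737 in HFD livers and 1597, 1657, 1458 and 1258 in NFD livers. Every NAC_HFD value was above every NFD value, and the HFD values, with replicate 1 apart from the rest, overlap both. Fgb had 944, 1232, 1032 and 1103 TPM in NAC_HFD livers, 1076, 821, 723 and 803 in HFD livers and 841, 799, 1058 and 659 in NFD livers. Fgg had 1836, 1997, 1424 and 1708 TPM in NAC_HFD livers, 2018, 1527, 1355 and 1456 in HFD livers and 1412, 1463, 1283 and 1102 in NFD livers. Both overlap between all groups. In NAC_HFD against NFD livers the log2 fold changes were 0.46 ± 0.13 (adjusted p = 0.0548) for Fga, 0.37 ± 0.15 (adjusted p = 0.163) for Fgb and 0.40 ± 0.14 (adjusted p = 0.12) for Fgg, none of them called. Without HFD replicate 1 the adjusted p of Fga was 0.0448. Over the 22 alternative fits it ranged from 0.0228 to 0.158, and Fga was not called in 20 of them. In HFD against NFD livers the log2 fold changes of Fga, Fgb and Fgg were 0.27, 0.03 and 0.26, and in NAC_HFD against HFD livers 0.19, 0.34 and 0.14. The 3 chains summed to 4832, 5311, 4276 and 5042 TPM in NAC_HFD livers, 5340.2, 4024, 3631 and 3996 in HFD livers and 3849, 3918, 3799 and 3019 in NFD livers. The sum was above every NFD liver in each NAC_HFD liver and in 3 of 4 HFD livers.

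Fga and Fgg kept close proportions, with a ratio of Fga to Fgg of 1.04 to 1.31 in NAC_HFD livers, 1.10 to 1.19 in HFD livers and 1.13 to 1.14 in NFD livers. The ratio of Fgb to Fgg was 0.514 to 0.725 in NAC_HFD livers, 0.533 to 0.552 in HFD livers and 0.546 to 0.824 in NFD livers, and its highest value was in NFD replicate 3. The minor Fga transcript ENSMUST00000166581 had 93.4, 138, 64.3 and 119 TPM in NAC_HFD livers, 74.4, 50.1, 48.0 and 66.1 in HFD livers and 46.3, 34.0, 45.1 and 52.0 in NFD livers. It was called higher in NAC_HFD against NFD livers, at 1.17 ± 0.23 (adjusted p = 0.0347), while the main transcript ENSMUST00000029630, 96.1% of Fga, was 0.43 ± 0.13 (adjusted p = 0.121). The call of the minor transcript was lost when NAC_HFD replicate 2 or 4, HFD replicate 4 or NFD replicate 1, 2 or 3 was left out, with adjusted p-values of 0.0542 to 0.0945. It was also lost with the replicate block, only both groups in the fit or no filter, with adjusted p-values of 0.0583 to 0.11.

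The 3 promoters of the fibrinogen genes are shown because the 3 genes are neighbours and their products form 1 protein. Each runs from 250 bases before to 50 bases after the gene start (RefSeq, GRCm38.p6; Fga chr3:83025903-83026202, plus strand; Fgb chr3:83049814-83050113, minus strand; Fgg chr3:83007474-83007773, plus strand). Capitals mark matches to 4 motifs searched on both strands: GTTAAT of HNF1, TTGCNNAA of C/EBP, TTCNNNGAA of STAT, the factor that carries interleukin 6 signals, and CAAAGTCCA of HNF4. Fga and Fgb each hold 1 match to the first 3 motifs, and in both the order from the far end to the gene start is STAT, C/EBP, HNF1. Fgg holds no match.
Fga: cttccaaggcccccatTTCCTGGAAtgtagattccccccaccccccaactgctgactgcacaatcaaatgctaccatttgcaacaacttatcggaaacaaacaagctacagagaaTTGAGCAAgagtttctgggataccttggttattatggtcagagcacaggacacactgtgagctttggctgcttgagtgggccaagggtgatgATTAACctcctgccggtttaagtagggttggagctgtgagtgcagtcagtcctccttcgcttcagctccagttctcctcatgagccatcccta
Fgb: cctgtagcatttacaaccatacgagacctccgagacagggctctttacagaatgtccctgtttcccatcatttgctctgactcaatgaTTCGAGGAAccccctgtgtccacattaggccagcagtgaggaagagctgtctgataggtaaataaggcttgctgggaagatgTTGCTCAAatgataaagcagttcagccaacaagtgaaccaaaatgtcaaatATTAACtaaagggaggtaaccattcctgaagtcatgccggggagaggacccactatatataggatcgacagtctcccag
Fgg: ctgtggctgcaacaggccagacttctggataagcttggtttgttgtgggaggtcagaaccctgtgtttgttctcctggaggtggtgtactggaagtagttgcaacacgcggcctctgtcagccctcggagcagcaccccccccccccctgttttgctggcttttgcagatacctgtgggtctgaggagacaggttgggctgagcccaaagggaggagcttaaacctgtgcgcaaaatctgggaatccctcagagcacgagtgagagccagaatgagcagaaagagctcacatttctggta

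RefSeq promoters were at hand for 34 of the 43 members, in 36 windows. The HNF1 motif was in 27.8% of these windows, beside 7.10% of all 32851 promoter windows of the table. The C/EBP motif was in 38.9%, beside 10.8% of all, the STAT motif in 22.2%, beside 8.30%, and the HNF4 core in 0, beside 0.475%. Fga, Fgb and C1ra were the 3 members with matches to HNF1, C/EBP and STAT. A match describes the letters only and does not show that a factor binds.

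The serpins of coagulation are Serpinc1, which encodes antithrombin, and Serpind1, heparin cofactor II. Neither was called. Serpinc1 had 948, 781, 1010.1 and 1179 TPM in NAC_HFD livers, 966, 1035, 877 and 908 in HFD livers and 1047, 1136, 968 and 799 in NFD livers. The groups overlap, and its log2 fold changes lay between -0.05 and 0.04. Serpind1 ranged over 264 to 356 TPM in NAC_HFD livers, 270.2 to 293 in HFD livers and 257 to 313 in NFD livers, with log2 fold changes between -0.02 and 0.13.

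In fibrinolysis, Plg encodes plasminogen, the precursor of plasmin, Serpinf2 encodes its inhibitor antiplasmin, and Cpb2 a carboxypeptidase that protects fibrin. Plg had 822, 906, 977 and 980.2 TPM in NAC_HFD livers, 816, 778, 785 and 799 in HFD livers and 792, 833, 746 and 687 in NFD livers. All NAC_HFD values were above all HFD values and overlap the NFD values. The log2 fold change of Plg was 0.21 ± 0.09 (adjusted p = 0.289) in NAC_HFD against HFD livers and 0.27 ± 0.09 (adjusted p = 0.112) in NAC_HFD against NFD livers. Serpinf2 had 265, 286, 419 and 419 TPM in NAC_HFD livers, 391, 322, 335 and 324 in HFD livers and 311, 321, 376 and 325 in NFD livers. NAC_HFD replicates 1 and 2 were lower than all other livers and NAC_HFD replicates 3 and 4 higher, so the group means differed little, with log2 fold changes between -0.01 and 0.04. Cpb2 ranged over 188 to 233 TPM in NAC_HFD livers, 175 to 229.9 in HFD livers and 129.5 to 189 in NFD livers, and was 0.31 ± 0.13 (adjusted p = 0.21) in HFD against NFD livers and 0.30 ± 0.13 (adjusted p = 0.18) in NAC_HFD against NFD livers. From the mRNA alone the estimates of Cpb2 were 0.23 (adjusted p = 0.393) and 0.12 (adjusted p = 0.656). The Cpb2 mRNA averaged 146 ± 4.07 TPM in NAC_HFD livers and 137 ± 25.2 in NFD livers (SD, n = 4 each), while the transcript ENSMUST00000227817 of the lncRNA table averaged 54.5 ± 19.7 TPM in NAC_HFD livers and 26.9 ± 3.68 in NFD livers (SD, n = 4 each), so most of the NAC_HFD difference lay in the lncRNA table.

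Hrg, a histidine-rich glycoprotein that binds heparin, plasminogen and fibrinogen, had 639, 649, 742 and 717 TPM in NAC_HFD livers, 600.0, 544, 509 and 586 in HFD livers and 543, 612, 517 and 439.8 in NFD livers. All NAC_HFD values were above all HFD and all NFD values. Hrg averaged 687 ± 50.5 TPM in NAC_HFD livers, 559.6 ± 41.6 in HFD livers and 528 ± 71.3 in NFD livers (SD, n = 4 each), with log2 fold changes of 0.30 ± 0.11 (adjusted p = 0.215) in NAC_HFD against HFD livers and 0.39 ± 0.11 (adjusted p = 0.0599) in NAC_HFD against NFD livers, neither called. Without NFD replicate 2 the adjusted p in NAC_HFD against NFD livers was 0.0381. Hrg was not called there in 20 of the 22 alternative fits, and its adjusted p reached 0.144. Vtn, which encodes the adhesive protein vitronectin, had 1108, 1122, 1189 and 1158 TPM in NAC_HFD livers, 1024, 1015, 1043 and 1101 in HFD livers and 1236, 1215, 1114 and 1235 in NFD livers. All HFD values were below all NAC_HFD and all NFD values, with log2 fold changes of -0.20 ± 0.08 (adjusted p = 0.216) in HFD against NFD livers and 0.13 ± 0.08 (adjusted p = 0.452) in NAC_HFD against HFD livers. After quantile normalization the adjusted p of Vtn in HFD against NFD livers was 0.0455. From the mRNA alone the estimate was -0.13 (adjusted p = 0.48), and the HFD and NFD groups overlap. The Vtn mRNA had 960.2, 944, 926 and 1032 TPM in HFD livers, against 1114, 1118, 1062 and 944 in NFD livers, and the transcript ENSMUST00000153628 of the lncRNA table reached 286 TPM in NFD replicate 4, against 45.3 to 119 TPM in the other NFD livers.

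**Figure D5:**
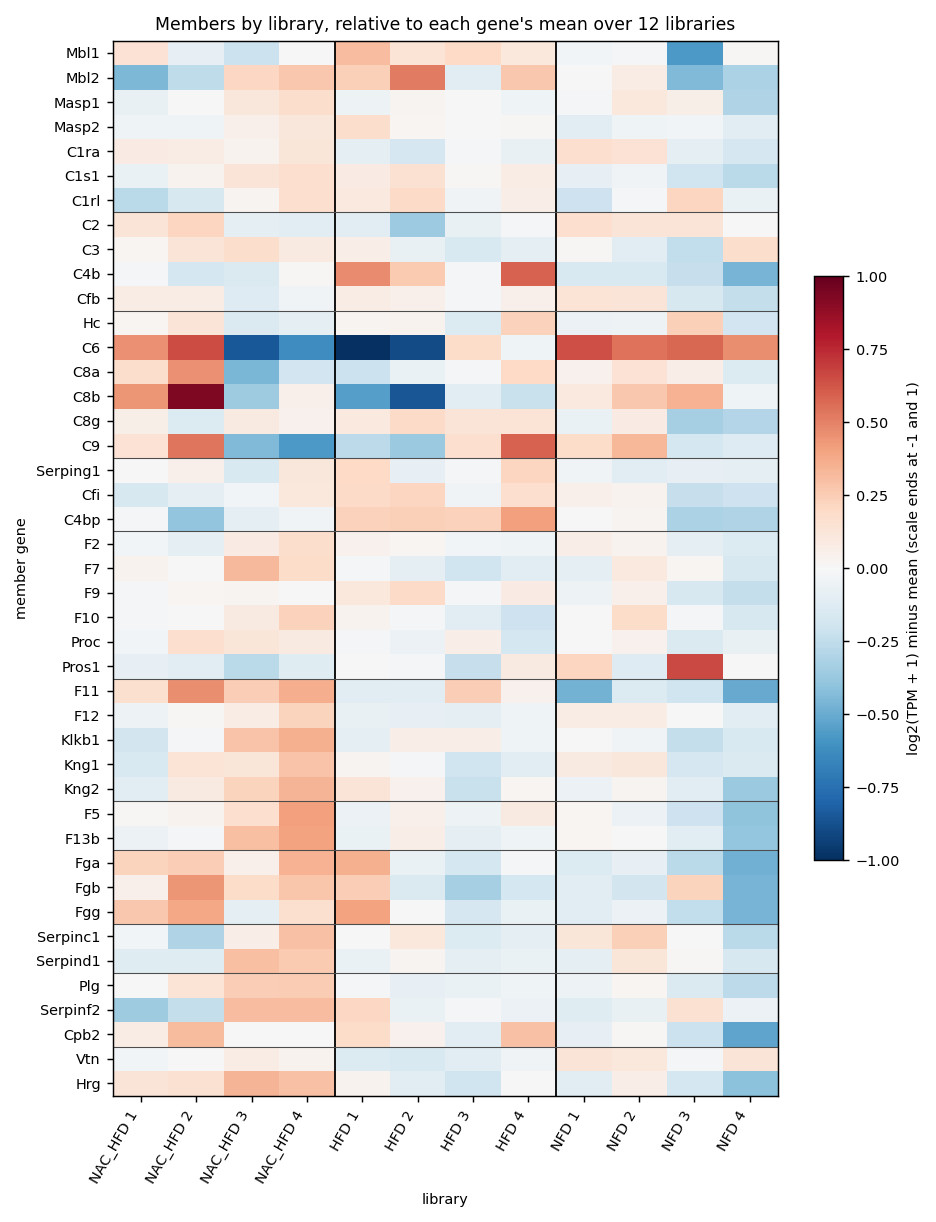
Level of each of the 43 members (rows, by role) in each of the 12 libraries (columns) as log2(TPM + 1) minus the gene's mean over the 12 libraries, red for higher and blue for lower. C6, with the darkest cells, is low in NAC_HFD replicates 3 and 4 and HFD replicates 1 and 2, and the coagulation rows F11 to Hrg are mostly blue in NFD replicate 4.

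At the level of transcripts the members had 99 mRNA transcripts and 27 in the lncRNA table, and 90 of the mRNA transcripts were tested. In HFD against NFD livers 1 of the 90 was called, beside 0.621% of all 18183 tested, in NAC_HFD against HFD livers 0, beside 0.0055%, and in NAC_HFD against NFD livers 3, all of them higher, beside 1.41%. The authors' deposited table for NAC_HFD against HFD lists the Kng1 transcript ENSMUST00000125790 with a ratio of 26623200 and an adjusted p of 1.14e-07. In the TPM table that transcript had 110 TPM in NAC_HFD replicate 2 and 6.01 TPM in NAC_HFD replicate 3 and was listed at 0 in the other 10 libraries. The authors' deposited table for HFD against NFD lists the C6 transcript ENSMUST00000161997 with a ratio of 0.345 and an adjusted p of 0.0466. It had 6.79, 9.11, 22.8 and 14.9 TPM in HFD livers, against 40.03, 33.8, 46.5 and 38.4 in NFD livers. The fit here gave it -1.62 ± 0.43 (adjusted p = 0.113).

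Other genes of the 2 cascades were counted from lists. Of 17 tested complement genes outside the 43, 1 was called higher and 0 lower in HFD against NFD livers, and 15 had positive estimates with a median of 0.22. The called gene was Cfd, factor D, the protease that activates factor B and a product of fat cells as well. Cfd had 1.60, 0.19, 0.11 and 1.75 TPM in NAC_HFD livers, 4.87, 4.74, 6.63 and 32.7 in HFD livers and 0.58, 0.05, 0.05 and 0.12 in NFD livers. HFD replicate 4 was far above the others, and the log2 fold change was 3.03 ± 0.55 (adjusted p = 0.02). With a pseudocount of 0.1 it was 5.15 (adjusted p = 0.017), and without HFD replicate 4 it was 2.43 (adjusted p = 0.00938). In the other comparisons none of the 17 was called, with 4 positive and a median of -0.16 in NAC_HFD against HFD livers and 7 positive and a median of -0.10 in NAC_HFD against NFD livers. Of the 4 fat cell markers listed, which include Cfd, Adipoq and Plin1 were at or near 0, at most 0.27 TPM, in all libraries. The fourth, Cidec, a lipid droplet protein of fat cells and of fat-laden hepatocytes, had 3.0, 1.41, 0.44 and 2.76 TPM in NAC_HFD livers, 13.6, 11.3, 5.69 and 11.7 in HFD livers and 1.58, 1.33, 15.3 and 4.65 in NFD livers. All NAC_HFD values of Cidec were below all HFD values, and its log2 fold change was 1.20 ± 0.60 (adjusted p = 0.314) in HFD against NFD livers and -2.05 ± 0.60 (adjusted p = 0.149) in NAC_HFD against HFD livers, neither called. The 4 markers summed to 0.58 to 4.60 TPM in NAC_HFD livers, 12.6 to 44.4 in HFD livers and 1.45 to 15.4 in NFD livers, and the part of fat cells in the Cfd result was not tested. Of 16 tested coagulation genes outside the 43, none was called in HFD against NFD livers (median 0.07) or NAC_HFD against HFD livers (median -0.12). In NAC_HFD against NFD livers Proz, the cofactor protein Z, rose and Mcfd2, a cargo receptor subunit that exports factors V and VIII from the endoplasmic reticulum, fell, with a median of -0.09 over the 16. Proz had 175, 187, 195 and 206 TPM in NAC_HFD livers, against 141, 162, 129 and 137 in NFD livers, a log2 fold change of 0.42 ± 0.10 (adjusted p = 0.0247). Mcfd2 had 88.1, 68.7, 66.4 and 81.5 TPM in NAC_HFD livers, against 120.4, 126, 140.2 and 86.9 in NFD livers, a log2 fold change of -0.62 ± 0.14 (adjusted p = 0.0256). The call of Proz was lost without NAC_HFD replicate 3 or 4 or NFD replicate 1 or 3, with only both groups in the fit and with the replicate block (adjusted p-values of 0.0516 to 0.0793). That of Mcfd2 was lost without NAC_HFD replicate 2, 3 or 4 or NFD replicate 1, 2 or 3, with no filter and with only both groups in the fit (adjusted p-values of 0.0529 to 0.0769).

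Other groups of genes give the setting of these values. Of 23 acute phase genes, 3 were called higher in HFD against NFD livers (Saa4, Saa3 and Il6ra), 21 had positive estimates and the median was 0.39. In NAC_HFD against HFD livers 6 of 23 were positive with a median of -0.29 and none was called, and in NAC_HFD against NFD livers Saa4 and Cebpb were called higher, with a median of 0.02. Saa4 had 303, 215, 125 and 147 TPM in NAC_HFD livers, 252, 177, 218 and 316 in HFD livers and 72.7, 83.4, 64.4 and 86.9 in NFD livers. Saa3 had 9.63, 9.66, 7.08 and 8.00 TPM in NAC_HFD livers, 25.4, 17.9, 10.7 and 17.7 in HFD livers and 6.14, 6.77, 9.64 and 4.71 in NFD livers. Il6ra, the interleukin 6 receptor, had 29.0, 27.1, 29.7 and 38.5 TPM in NAC_HFD livers, 27.4, 35.4, 38.5 and 38.4 in HFD livers and 23.0, 26.2, 19.1 and 21.7 in NFD livers. Saa4 was called in all 22 alternative fits of both comparisons. Saa3 lost its call without HFD replicate 4 (adjusted p = 0.0515), Il6ra without HFD replicate 2, 3 or 4 or NFD replicate 1, 3 or 4 and with no filter (0.064 to 0.105), and Cebpb without NAC_HFD replicate 2, 3 or 4 or NFD replicate 2, 3 or 4, with no filter, with only both groups and with the block (0.0505 to 0.0967). The acute phase proteins Saa1 and Saa2 reached 1936 and 1798 TPM in HFD replicate 4, against at most 119 and 56.8 TPM in the other HFD livers. The fibrinogen chains did not share this peak: HFD replicate 4 had a fibrinogen sum of 3996 TPM, the third highest of its group.

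Of 17 other proteins that hepatocytes secrete, such as albumin and the apolipoproteins, none was called in any comparison, and their medians were -0.03 in HFD against NFD livers, 0.02 in NAC_HFD against HFD livers and 0.02 in NAC_HFD against NFD livers. Of 10 hepatocyte regulators, Foxa3, a transcription factor of liver genes, was called lower in HFD livers and in NAC_HFD livers, each against NFD livers. Foxa3 had 50.3, 49.3, 30.7 and 44.9 TPM in NAC_HFD livers, 40.2, 41.9, 46.1 and 34.8 in HFD livers and 86.8, 65.3, 56.3 and 71.4 in NFD livers. Its log2 fold change was -0.75 ± 0.16 (adjusted p = 0.0248) in HFD against NFD livers and -0.67 ± 0.16 (adjusted p = 0.0301) in NAC_HFD against NFD livers. The first call was lost without HFD replicate 1, 2 or 4 or NFD replicate 1 or 4 and with no filter (adjusted p-values of 0.0585 to 0.0897), and the second without NAC_HFD replicate 3 or 4 or NFD replicate 1 or 4, with no filter and with only both groups (0.054 to 0.083). Of 8 markers of Kupffer cells, the macrophages of the liver, 8 were positive with a median of 0.55 in HFD against NFD livers and 0 with a median of -0.71 in NAC_HFD against HFD livers, and none was called. Their sum was 57.6 to 104 TPM in NAC_HFD livers, 82.5 to 196 in HFD livers and 60.1 to 113 in NFD livers, and the defining markers Clec4f and Cd5l were at least 11.3 and 14.1 TPM in every library. Macrophages can make complement proteins too, and the part of these cells in the results for C4b and C4bp was not tested. Markers of sinusoidal endothelium (6), stellate cells (5), erythroid cells (4 tested), cholangiocytes (1 tested) and platelets (1 tested) had no call in any comparison. The platelet sum was at most 3.16 TPM. In NAC_HFD against HFD livers, where no gene was called, 0 of 6 endothelial markers were positive (median -0.15). There 3 of 5 stellate (0.01) and 0 of 4 erythroid markers (-0.30) were positive. None of 5 hepatocyte markers was called. In HFD against NFD livers 1 was positive (median -0.17), in NAC_HFD against HFD livers 4 (0.15). In NAC_HFD against NFD livers 2 were (-0.03). Whether these shifts bear on the members' values was not tested.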

How the data were processed

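Liver RNA was measured in 12 libraries, 4 per group, and groups and replicate numbers come from the sample labels. Per the submitters' processing notes, fastp, HISAT and RSEM were used with build GRCm38; versions and settings were not given in sources used here. The authors deposited TPM per gene and per mRNA and lncRNA transcript. TPM keeps no read depth, so no counting interval could be given. The authors' deposited comparison tables hold ratios, log2 fold changes and p-values per transcript, and their test was not given in sources used here.

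A gene was tested where 4 or more of the 12 libraries had 1 TPM or more (11376 of 19252). A model with 3 group means was fitted to log2(TPM + 1) in limma 3.58.1 under R 4.3.3 (eBayes with trend and robust, 9 residual degrees of freedom, two-sided). The Benjamini-Hochberg adjustment ran over all tested genes, with a threshold of 0.05. The fit was tested on simulated data. mRNA transcripts were fitted likewise (18183 tested). The pseudocount makes fold changes of low genes smaller.

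The members and gene lists were chosen with earlier results of these data known. Values in every library are given for called members, for the 4 with the smallest p in each comparison and for a panel of 27 pathway steps. They are also given for C2, C6, C8a and Vtn, which this rule does not cover. Tests of transcripts and of called genes of the other lists under the alternatives, and the list of male-biased genes, were added after seeing the data. Gene positions and promoters are from RefSeq (GRCm38.p6).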

Additional observations from a re-analysis of the deposited data

Results flagged for a closer look

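A library is named here where it lay so far from the other 3 of its group that the gap to the nearest of them as a share of the group's whole range passed Dixon's 95% critical value for 4 samples. Chance alone flags about 1 in 20 groups. Of 129 groups of member values, 3 were flagged. Mbl1 was 73.8 TPM in NFD replicate 3, below the other NFD livers. Masp2, a lectin pathway protease, was 180.2 TPM in HFD replicate 1, above the other HFD livers. C4bp was 254 TPM in HFD replicate 4, above the other HFD livers, which lay close together.

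Outside the members only a short, hand-picked set of genes was checked, not all tested genes, and 5 values were flagged. Cfd was 32.7 TPM in HFD replicate 4 and 0.58 TPM in NFD replicate 1, each the highest of its group. Saa1 was 1936 TPM in HFD replicate 4. Saa2 was 1798 TPM in HFD replicate 4 and 184 TPM in NFD replicate 1, each the highest of its group.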

How the results depend on the processing

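The counts of calls, the log2 fold changes of members with an unadjusted p under 0.05 and those of the other listed genes that were called were recomputed under 3 other scalings, a pseudocount of 0.1, a floor of 5 TPM, no filter, only both compared groups in the fit, a replicate block, eBayes without trend or robust, mRNA transcripts summed per gene, and without each of the 12 libraries. None of these log2 fold changes changed sign; Cfd did not pass the floor of 5 TPM. Over all 43 members the sign turned under at least 1 of the 22 for 15 members in HFD against NFD, 12 in NAC_HFD against HFD and 14 in NAC_HFD against NFD, whose log2 fold changes were at most 0.09, 0.12 and 0.14 in size. F11 in NAC_HFD against NFD livers was called in all 22. C4b in HFD against NFD livers lost its call in 9 of 22, so the count of members called there was 0 with no filter, with only both groups and with the block, 2 after quantile normalization, and 0 to 2 without 1 library. In NAC_HFD against NFD livers 5 members were called with median-of-ratios scaling and 1 to 2 without 1 library. In NAC_HFD against HFD livers no member was called under any of the 22.

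Over all genes, HFD against NFD gave 316 calls, 168 with no filter, and 90 to 375 without 1 library, the lowest without HFD replicate 1. NAC_HFD against NFD gave 601 calls, 289 with no filter, 188 with only both groups, and 211 to 618 without 1 library, the lowest without NAC_HFD replicate 4. NAC_HFD against HFD gave 0 calls in most fits and 0 to 64 without 1 library, the highest without NAC_HFD replicate 1.

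mRNA transcripts were refitted under 20 of these. HFD against NFD gave 113 calls, 24 with no filter and 12 to 171 without 1 library. NAC_HFD against NFD gave 257, 408 with median-of-ratios scaling, 38 with no filter, 13 with only both groups, and 44 to 315 without 1 library. NAC_HFD against HFD gave 1, 2 after quantile normalization, 4 without trend or robust, 0 with the pseudocount of 0.1, the floor of 5 TPM or only both groups, and 0 to 6 without 1 library. Fewer samples and more tests of low transcripts are part of these settings by construction; the cause of the other shifts was not tested.

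Deviations of libraries with the same replicate number were weakly correlated, between -0.17 and 0.18. The labels do not say what the numbers stand for, so whether they pair the samples is unknown. With the replicate block the adjusted p of C4b was 0.0513, NAC_HFD against HFD gave 3 genes, HFD against NFD 225 and NAC_HFD against NFD 406. Transcripts called with the block numbered 18 in HFD against NFD, 0 in NAC_HFD against HFD and 30 in NAC_HFD against NFD.

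The unknown depth, 4 libraries per group and libraries that stand apart (HFD replicate 4 for the acute phase, NFD replicate 4 for low coagulation genes) limit what these data can show. Of the 12 libraries, NFD replicate 4 also had the lowest gene table sum (656154 TPM) and the highest lncRNA table sum (395100 TPM). Its share of mitochondrial genes in the gene table, 12.6%, was the highest too. Whether this bears on its low coagulation genes was not tested.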
